A study of Homo sapiens with 8 samples.

Results

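The Rab GTPases were examined gene by gene in RNA-seq libraries of 2 multiple myeloma (MM) cell lines. The members were the protein-coding genes with a symbol made of RAB, a number and at most 1 letter and 1 further digit in GENCODE release 44, with a summed expected count of at least 80 over the 8 libraries. Of 63 Rab symbols listed, 50 met the threshold, and the files list 58219 genes in all. H929 (NCI-H929) and KMS11 are established lines grown from MM, both carry the t(4;14) translocation, and both were kept in RPMI 1640 medium with fetal bovine serum. The cells received either ethanol, the solvent, or 2 µM fluvastatin in ethanol for 24 h, in 2 biological replicates per condition. Fluvastatin blocks HMG-CoA reductase, the enzyme that makes mevalonate, and no gene was altered by design. Each line is a single model, so that a difference between H929 and KMS11 is a difference between these lines.

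Rab proteins are small GTPases that mark the surfaces of organelles and recruit the proteins that move, tether and fuse vesicles. They bind membranes through geranylgeranyl groups, which are made from mevalonate and attached by the enzyme GGTase-II to a Rab held by an escort protein. An exchange factor loads the Rab with GTP, effectors then bind it, and a GTPase-activating protein ends the cycle. Plasma cells, from which MM arises, move large amounts of antibody through the ER and Golgi, where several Rabs act.

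Total expected counts, which are estimated fragments per gene before any scaling, ranged from 26702515 to 41910446 per library. Plasma cell markers were present, with TNFRSF17 at 130 to 480 TPM, a level scaled by transcript length and XBP1 at 254 to 944 TPM, although CD38 did not exceed 0.04 TPM in KMS11. Markers of B cells, myeloid cells and stroma reached at most 0.17 TPM, and of the T cell markers CD3E was the highest, at 0.25 to 3.54 TPM. The replicates of fluvastatin-treated KMS11 were the most unlike, with chi-square values of 37.8 per degree of freedom against 10.0 to 18.1 for the pairs of the other groups.

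The 50 members together made up 0.0543% to 0.0875% of all TPM in a library. RAB10, which carries vesicles to the plasma membrane, was the highest member in both lines, at 42.0 and 42.7 TPM in H929 in ethanol and at 94.6 and 86.2 TPM in KMS11. The next members in H929 were RAB8A, RAB2A, RAB11A and RAB1A, and in KMS11 RAB21, RAB1A, RAB11A and RAB18. The 5 highest members held 33.6% of the family's TPM in H929 and 42.9% in KMS11. A mean of at least 10 TPM in ethanol was reached by 18 members in H929, by 23 in KMS11 and by 14 in both, on a scale that ran higher in KMS11 for most genes tested.

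The member of the ER and Golgi group with the highest median over the 8 libraries was RAB18, a Rab of the ER and lipid droplets, at 47.5 TPM, with RAB1A next at 45.6 TPM. In ethanol RAB18 did not lead the group, since RAB2A and RAB1A had higher means in H929 and RAB1A had a higher mean in KMS11. RAB21, which serves integrin uptake at early endosomes, led its group at 43.3 TPM. RAB11A, the main Rab of recycling endosomes, had a median of 50.3 TPM, and RAB7A, which drives traffic to lysosomes, had 25.8 TPM. RAB28, one of the 4 members placed under cilium or other, had a median of 16.1 TPM. At the low end, 8 members had means under 1 TPM in ethanol in both lines, namely RAB32, RAB20, RAB38, RAB34, RAB39A, RAB3C, RAB26 and RAB6B.

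**Figure D1:**
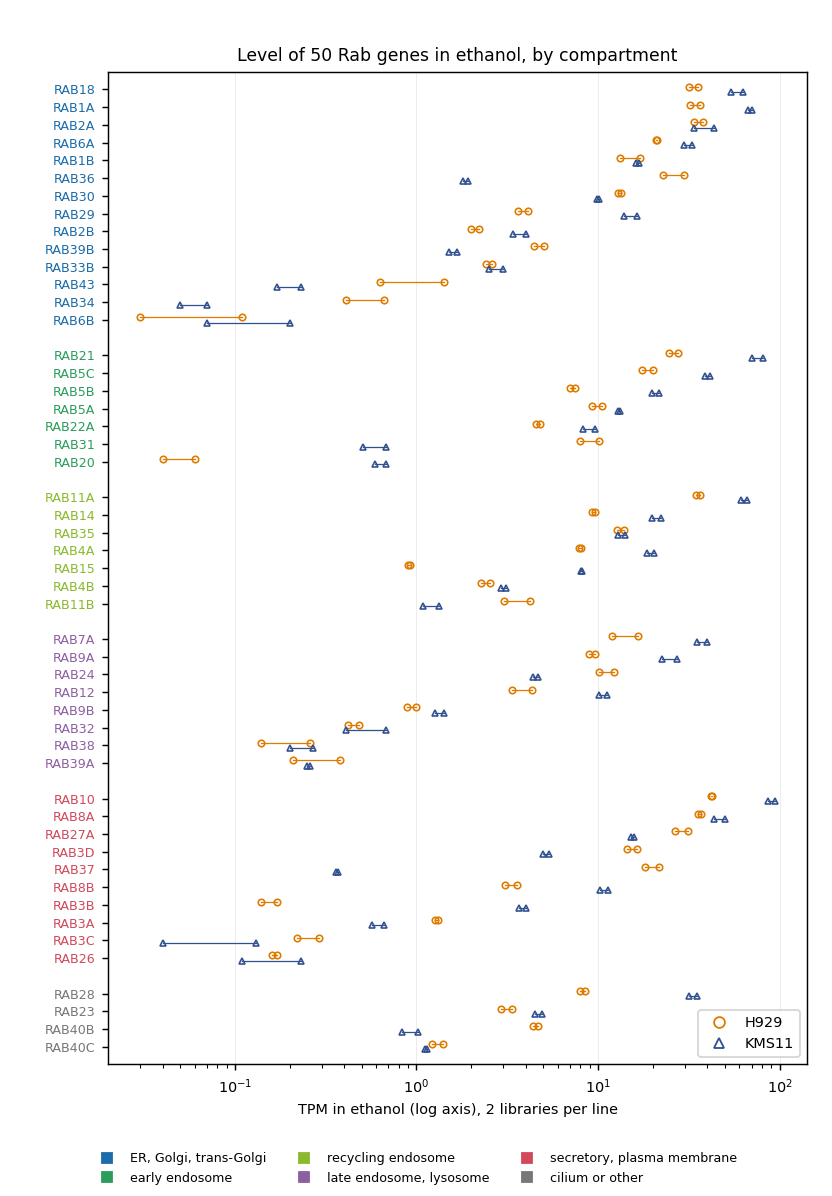
TPM of the 50 Rab genes in ethanol on a log axis, grouped by compartment and ordered by median level, with circles for the 2 H929 libraries, triangles for the 2 KMS11 libraries and lines joining the replicates. RAB10 was highest in both lines, while RAB37, RAB31 and RAB36 were far higher in H929 and RAB3B and RAB15 far higher in KMS11.

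Members just inside the threshold were RAB34 with 91 counts, RAB26 with 96 and RAB38 with 104 summed over the libraries. Just outside were RAB27B with 56 counts, a close relative of RAB27A in granule release, and RAB33A with 55. RAB13, RAB7B and RAB41 were listed at 0 in every library, and the other 8 symbols below the threshold had 1 to 33.0 counts. All 50 members passed the low-count filter used for testing.

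The lines were first compared in ethanol. KMS11 had 20 members higher and 18 lower than H929 (edgeR adjusted p under 0.05), and 12 did not pass. Among all 13129 protein-coding genes tested, 72.0% passed in either direction, 35.6% higher and 36.4% lower in KMS11, so that the Rab share was near this background. The median log2 difference was -0.01 over the members and -0.02 over all genes tested. TPM values ran higher in KMS11 for most genes, with a median difference of 0.31 on the log2(TPM + 1) scale, so the lines were compared with library-scaled counts after TMM normalization (CPM).

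The widest gaps on the H929 side were in RAB37, RAB36 and RAB31. RAB37 (ENSG00000172794.19, chromosome 17 of GRCh38, 74670578 to 74747335), a Rab of secretory granules, had 100 and 80.8 CPM in H929 and 0.887 and 1.01 CPM in KMS11. Its log2 difference was -6.57 ± 0.19 (SE, n = 2 per group, edgeR adjusted p = 3.1e-09). RAB36, a Golgi Rab that also acts on lysosome position, had 230 and 181 CPM in H929 and 7.70 and 8.31 CPM in KMS11, a log2 difference of -4.68 ± 0.21. RAB31 (ENSG00000168461.12, chromosome 18, 9708275 to 9862551), which moves cargo between the trans-Golgi network and endosomes, had 63.5 and 83.8 CPM in H929 and 3.39 and 3.06 CPM in KMS11, a log2 difference of -4.51 ± 0.21. In each of these genes the 2 lines lay far apart, with no overlap. RAB34 also passed but had 26 and 25 counts in H929 and 2 in each KMS11 library, too few to fix a fold. RAB43 passed at -3.01 ± 0.49, and it shares 79.3% of its exonic bases on the same strand with the readthrough gene ISY1-RAB43, so that its counts depend on how RSEM divided the fragments.

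On the KMS11 side RAB3B, a Rab of regulated secretion, had 73.3 and 72.2 CPM against 3.64 and 4.60 CPM in H929, a log2 difference of 4.15 ± 0.16 (edgeR adjusted p = 1.7e-08). RAB15, which acts at early and recycling endosomes, had 38.4 and 33.3 CPM against 4.83 and 3.72 CPM, a difference of 3.06 ± 0.18. RAB20, an endosomal Rab, also passed, with 50 and 45 counts in KMS11 and 3 and 4 in H929. RAB28 differed by 1.51 ± 0.11 and RAB8B by 1.50 ± 0.11. Some members that share a Rab number were called in opposite directions. Unlike RAB3B, RAB3A (-1.72 ± 0.30), RAB3C (-2.59 ± 0.67) and RAB3D (-2.10 ± 0.10) were lower in KMS11. RAB3C had only 19 and 1 counts there, against 46 and 42 in H929. RAB11A was higher in KMS11 (0.69 ± 0.10) and RAB11B lower (-2.04 ± 0.31). By compartment, 5 of 7 early endosome members were higher in KMS11 and 1 was lower, and 4 of 7 recycling endosome members were higher and 2 lower. Of 10 secretory and plasma membrane members 3 were higher and 6 lower, and of 14 ER and Golgi members 4 were higher and 6 lower. Of the 38 calls, 34 remained in every fit that left out 1 library. For RAB8A the scale decided the direction, since it was lower in KMS11 in CPM (-0.46 ± 0.09) while its TPM was 49.9 and 43.2 in KMS11 and 35.4 and 36.8 in H929.

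**Figure D2:**
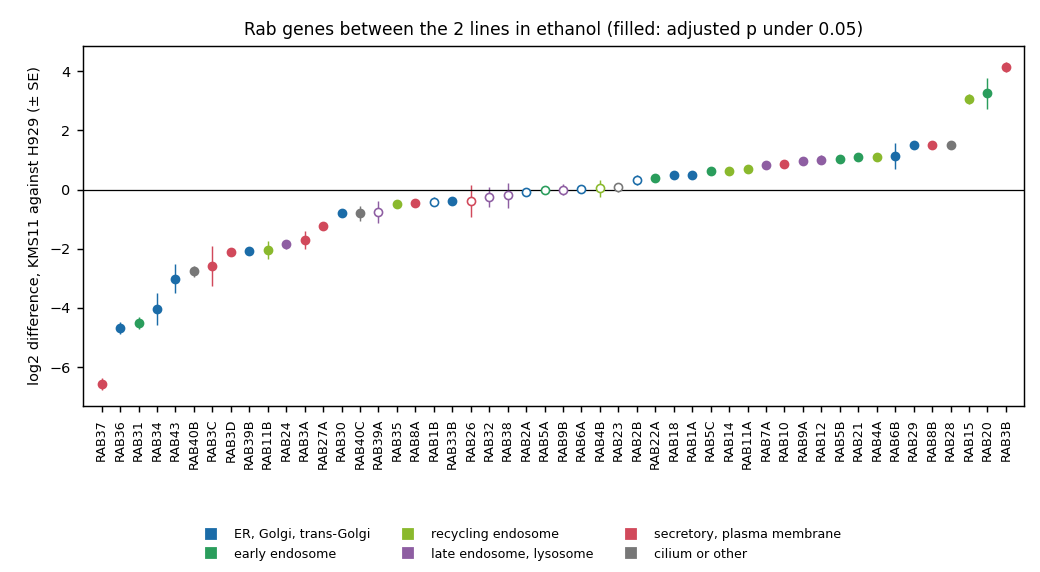
Log2 difference between KMS11 and H929 in ethanol for each of the 50 members in rank order, with bars of ± 1 SE, colours for compartments and filled points for an edgeR adjusted p under 0.05. The values run from -6.57 for RAB37 to 4.15 for RAB3B, and the 12 open points lie between -0.74 and 0.32.

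The question of the treatment was whether Rab mRNAs changed when mevalonate synthesis was blocked. In H929, 19 of the 50 members rose with fluvastatin, 4 fell and 27 did not pass. Over all genes tested 42.0% passed in H929, 22.7% higher and 19.3% lower, against 38% of the members higher and 8% lower. The median log2 change was 0.17 over the members and 0.02 over all genes tested. In bulk RNA, a change in every cell and a change in the make-up of the cells sampled cannot be told apart. Fewer members, and fewer of all genes tested, passed when any 1 H929 library was left out. Many of the 23 calls did not remain in every fit that left out 1 library. The calls that remained in all of them were RAB31, RAB37, RAB39B, RAB8B, RAB8A, RAB6A, RAB29, RAB5B, RAB30, RAB15 and RAB3A. Without ethanol replicate 1 the median log2 change was 0.20 over the members and 0.05 over all genes tested. It was 0.23 and 0.01 without ethanol replicate 2, 0.22 and 0.005 without fluvastatin replicate 1, and 0.15 and 0.01 without fluvastatin replicate 2.

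**Figure D3:**
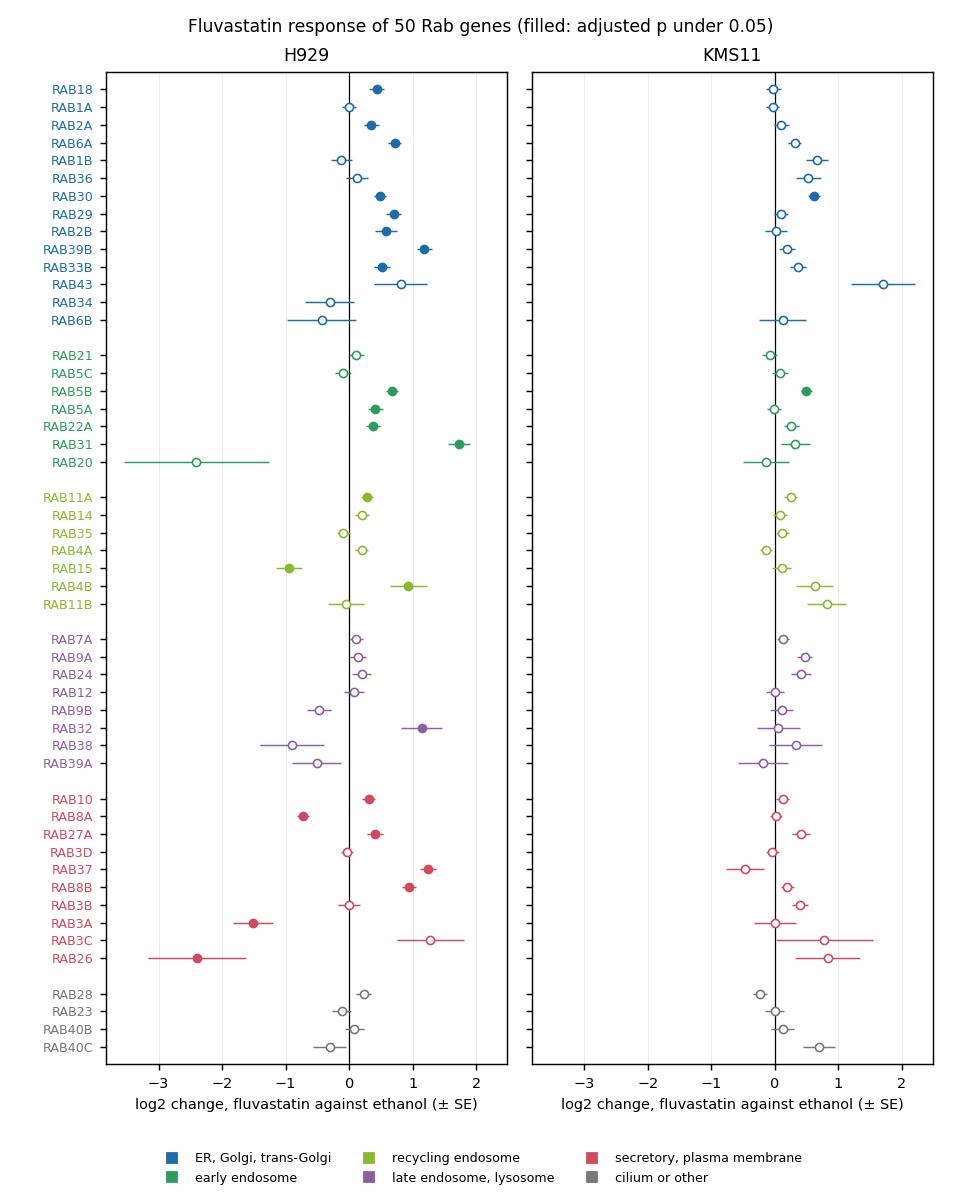
Log2 change with fluvastatin in H929 (left) and KMS11 (right) for each member, grouped and coloured by compartment, with bars of ± 1 SE and filled points for an edgeR adjusted p under 0.05; RAB34 in KMS11 is left out because no library there exceeded 2 counts. H929 shows 23 filled points and KMS11 shows 2, RAB5B and RAB30.

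In the ER, Golgi and trans-Golgi group 8 of 14 members were higher in H929 and none lower, with a median log2 change of 0.46. RAB39B (ENSG00000155961.4, chromosome X, 155258235 to 155264491), a Rab of the Golgi and of neurons, had 35.6 and 31.9 CPM in ethanol and 79.8 and 73.5 CPM in fluvastatin. All of its treated values stood above all of its control values, a log2 change of 1.18 ± 0.11 (edgeR adjusted p = 4.8e-05). RAB6A, which controls retrograde traffic from the Golgi, had 113 and 114 CPM in ethanol and 186 and 187 CPM in fluvastatin, a log2 change of 0.71 ± 0.10 (edgeR adjusted p = 0.00045). RAB29, a trans-Golgi Rab that recruits the kinase LRRK2, went from 20.5 and 23.0 CPM to 33.3 and 37.3 CPM, a change of 0.70 ± 0.11. RAB2B (0.58), RAB33B (0.52), RAB30 (0.48), RAB18 (0.43) and RAB2A (0.35) rose by less. The ER to Golgi Rabs RAB1A and RAB1B did not pass, at -0.00 ± 0.11 and -0.12 ± 0.17.

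Early endosome genes had 4 of 7 members higher and none lower. RAB31 had the largest rise of any member in H929, from 63.5 and 83.8 CPM in ethanol to 204 and 283 CPM in fluvastatin. The groups did not overlap, and the log2 change was 1.73 ± 0.17, a 3.31-fold rise (edgeR adjusted p = 5.1e-05). RAB5B (ENSG00000111540.15, chromosome 12, 55973913 to 55996683), one of the 3 RAB5 genes of early endosome fusion, rose from 46.0 and 41.5 CPM to 69.4 and 70.3 CPM, by 0.67 ± 0.09. RAB5A rose by 0.41 ± 0.11 and RAB22A by 0.38 ± 0.12, while RAB5C, with -0.10 ± 0.13, did not pass. RAB20 had 3 and 4 counts in ethanol and 1 and 0 in fluvastatin, and no change could be measured at this depth.

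The recycling endosome group had 2 of 7 members higher and 1 lower. RAB4B, of fast recycling, which shares exons with a readthrough gene of 71.5 summed counts, went from 4.12 and 4.20 CPM to 8.56 and 7.33 CPM, a log2 change of 0.93 ± 0.29, and RAB11A rose by 0.28 ± 0.10. RAB15 fell from 4.83 and 3.72 CPM to 2.11 and 2.34 CPM, a change of -0.95 ± 0.21. RAB4A, RAB11B, RAB14 and RAB35 did not pass, with changes from -0.09 to 0.21. Of the late endosome and lysosome members, 1 of 8 was called higher and none lower. The member called was RAB32, of lysosome-related organelles, at 0.919 and 1.08 CPM in ethanol and 2.02 and 2.38 CPM in fluvastatin, a change of 1.14 ± 0.32. RAB7A had 0.11 ± 0.10 and RAB9A, which returns receptors from late endosomes to the Golgi, had 0.14 ± 0.13. RAB38 (-0.90 ± 0.51), RAB39A (-0.51 ± 0.39) and RAB9B (-0.48 ± 0.19) had lower values that did not pass, and the TPM groups of RAB9B did not overlap. None of the 4 members placed under cilium or other passed.

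The secretory and plasma membrane group moved in both directions, with 4 of 10 members higher and 3 lower. RAB37 rose from 100 and 80.8 CPM to 231 and 196 CPM, a log2 change of 1.24 ± 0.13 and a 2.36-fold rise (edgeR adjusted p = 8.3e-05). RAB8B (ENSG00000166128.12, chromosome 15, 63189560 to 63267776) rose from 27.5 and 25.2 CPM to 51.7 and 49.6 CPM, by 0.94 ± 0.11 (edgeR adjusted p = 0.00011). Its close relative RAB8A (ENSG00000167461.11, chromosome 19, 16111889 to 16134234) moved the other way, from 137 and 145 CPM to 89.0 and 81.0 CPM, a change of -0.73 ± 0.10 (edgeR adjusted p = 0.00028). Both proteins send vesicles from the Golgi and recycling endosomes to the plasma membrane. Among members that share a Rab number, these were the only ones called in opposite directions within H929.

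RAB3A, of synaptic and secretory vesicles, had 85 and 75 counts in ethanol and 25 and 24 in fluvastatin, a log2 change of -1.51 ± 0.31. RAB26, also of secretory granules, had 13 and 12 counts and then 3 and 1, so that its fitted change of -2.39 ± 0.77 rests on few fragments. RAB27A, which docks secretory granules and exosome-bearing endosomes, rose by 0.41 ± 0.13 and RAB10 by 0.31 ± 0.10. RAB3B, RAB3C and RAB3D did not pass, with 0.00, 1.28 and -0.04.

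Promoters were read for members that moved in H929. RefSeq (GRCh38.p14) gave 300 bases around the start, 250 before and 50 after, for 39 of the 50 members. Shown are 5 members whose bases just before the start held no annotated exon, RAB8A and RAB3A, which fell, and RAB10, RAB22A and RAB29, which rose. Each is written 5′ to 3′ on the gene's strand and ends at the base before the start, and capitals mark a CCAAT box (CCAAT) or a GC box (GGGCGG) on either strand.
RAB8A, chr19:16111639-16111888, plus strand: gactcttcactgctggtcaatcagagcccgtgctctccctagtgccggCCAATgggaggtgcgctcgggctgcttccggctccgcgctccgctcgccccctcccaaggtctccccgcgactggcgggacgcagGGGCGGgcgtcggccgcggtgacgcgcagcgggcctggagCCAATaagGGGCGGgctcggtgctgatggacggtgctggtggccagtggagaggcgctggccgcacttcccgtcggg
RAB3A, chr19:18204043-18204292, minus strand: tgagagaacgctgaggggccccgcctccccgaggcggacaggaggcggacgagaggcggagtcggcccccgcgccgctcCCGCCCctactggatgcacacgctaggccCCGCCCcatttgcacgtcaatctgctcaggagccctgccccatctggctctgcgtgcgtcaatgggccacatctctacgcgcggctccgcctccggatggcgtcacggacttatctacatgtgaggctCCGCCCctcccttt
RAB10, chr2:26033834-26034083, plus strand: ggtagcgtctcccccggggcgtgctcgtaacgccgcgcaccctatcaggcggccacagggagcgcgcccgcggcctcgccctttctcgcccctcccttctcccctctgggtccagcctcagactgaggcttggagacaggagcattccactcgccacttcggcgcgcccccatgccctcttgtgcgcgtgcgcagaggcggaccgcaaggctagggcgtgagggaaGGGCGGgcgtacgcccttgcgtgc
RAB22A, chr20:58309495-58309714, plus strand: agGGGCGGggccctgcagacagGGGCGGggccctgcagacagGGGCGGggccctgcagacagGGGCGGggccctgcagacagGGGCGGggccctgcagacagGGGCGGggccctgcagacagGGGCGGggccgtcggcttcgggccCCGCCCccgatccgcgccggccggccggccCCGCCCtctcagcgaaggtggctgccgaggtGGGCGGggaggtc
RAB29, chr1:205775483-205775558, minus strand: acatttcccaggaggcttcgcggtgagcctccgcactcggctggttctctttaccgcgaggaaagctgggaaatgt

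The RAB22A stretch held a GC box in a repeated unit, RAB8A held both motifs, and the short RAB29 stretch held neither. Over the full 300 bases, a GC box was present in 34 of the 39 Rab promoters (87.2%) and in 59.3% of the promoters of 15277 protein-coding genes. A CCAAT box was present in 11 of 39 (28.2%, against 36.6% of all) and an E-box (CACGTG) in 6 of 39 (15.4%, against 8.89%). The composite element of ATF4 (TGATGNAA) occurred in 1 of 39, against 2.54% of all promoters, and the cAMP response element (TGACGTCA) in none, against 2.64%. All motifs were searched on both strands, and none of these motifs contains another. Among members that rose in H929, 12 of 15 with a promoter held a GC box, as did both of the 2 members with a promoter that fell. A match describes letters and is no evidence of binding.

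The rises in H929 differed in whether they were also present per unit of length. RSEM's effective length, the mean length of a gene's expressed transcripts that can yield a fragment, was longer by over 0.1 on the log2 scale in fluvastatin for 9 of the 23 called members, namely RAB10, RAB11A, RAB15, RAB18, RAB27A, RAB2A, RAB30, RAB4B and RAB8B. Members not called were longer by over 0.1 as well, namely RAB4A (0.22), RAB21 (0.14) and RAB40B (0.14). Over all genes tested the median change of this length in H929 was -0.00 (quartiles -0.03 and 0.06). The share of all genes tested above 0.1 was not computed. RAB2A was the clearest case, with TPM of 33.6 and 37.6 in ethanol and 35.0 and 40.4 in fluvastatin, groups that overlap. Its log2 change was 0.35 in counts, 0.08 in mean TPM and 0.26 in effective length. RAB11A overlapped in TPM too, at 34.7 and 36.4 against 34.9 and 39.2. RAB8B rose by 0.94 in counts and 0.57 in TPM. RAB15 fell further in TPM than in counts, from 0.90 and 0.92 to 0.37 and 0.34. With limma on log2(TPM + 1), 13 of the 23 calls remained, namely RAB31, RAB37, RAB39B, RAB32, RAB6A, RAB29, RAB5B, RAB2B, RAB33B, RAB8B, RAB8A, RAB15 and RAB3A. Fewer of all 13129 genes tested passed too, with 2110 higher and 2090 lower against 2982 and 2529 in the main fit. Loss of a call did not always go with a smaller change, since RAB22A had 0.38 in TPM and 0.38 in counts, RAB5A 0.34 and 0.41, and RAB4B 0.74 and 0.93. Whether other transcripts of these genes were used was not tested.

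**Figure D4:**
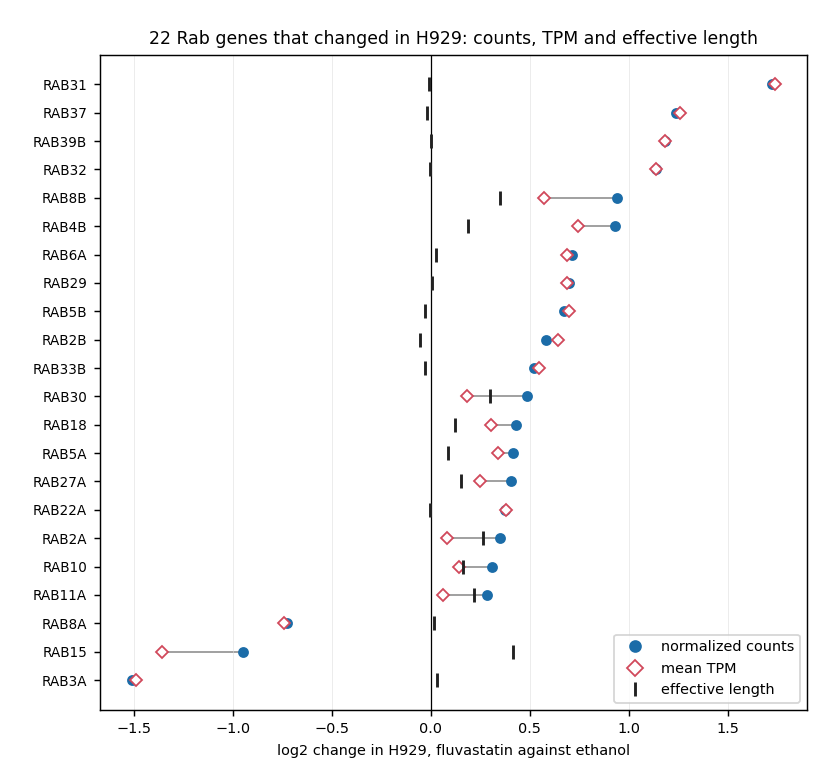
Log2 change in H929 of normalized counts (filled circles), mean TPM (open diamonds) and effective length (vertical ticks) for 22 of the 23 members called in H929, with RAB26 left out for its few counts. Circles and diamonds coincide for RAB31, RAB37, RAB39B, RAB8A and RAB3A, and they part where the length tick lies off 0, as for RAB2A (0.35 in counts, 0.08 in TPM) and RAB15 (-0.95 in counts, -1.36 in TPM).

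In KMS11 only RAB5B and RAB30 passed, both higher, and 48 members did not pass. Over all genes tested 3.12% passed in KMS11, 2.58% higher and 0.533% lower, and 4% of the members were higher. Without adjustment 15 members were higher and 1 lower at p under 0.05 with edgeR. No share over all genes was computed at this threshold, so these counts have no background. DESeq2 called 5 members higher and none lower, and of all 13129 genes tested it called 657 higher and 269 lower. RAB5B rose from 93.4 and 86.2 CPM to 128 and 126 CPM, a log2 change of 0.50 ± 0.09 (edgeR adjusted p = 0.020). RAB30 (ENSG00000137502.9, chromosome 11, 82973133 to 83071923), a Golgi Rab, rose from 50.8 and 51.4 CPM to 73.5 and 83.4 CPM, by 0.62 ± 0.09 (edgeR adjusted p = 0.0074). Neither gene's groups overlapped in either line. In TPM the rise of RAB30 was smaller, from 10.1 and 9.92 to 10.8 and 11.5, while its effective length went from 3499 and 3336 bases to 3941 and 4606. The same held in H929, with RAB30 at 13.4 and 12.9 TPM and then 15.3 and 14.6, and lengths of 3182 and 3167 bases and then 3699 and 4121. RAB5B stayed apart in TPM in KMS11, at 21.6 and 19.9 against 25.5 and 27.7. Its log2 change there was also smaller in mean TPM (0.36) than in counts (0.50), with 0.0003 in effective length. Over all genes tested the median change in KMS11 was -0.08 on the log2(TPM + 1) scale and 0.004 in counts. How much of the smaller rise of RAB30 in TPM went with its length was not tested.

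The KMS11 calls were few and depended on single libraries. When either ethanol library was left out neither gene passed, and far fewer of all genes tested passed too. The median log2 change was 0.15 over the members and -0.0006 over all genes tested without ethanol replicate 1. It was 0.12 and -0.005 without ethanol replicate 2. Without fluvastatin replicate 2 more members passed, with RAB28 lower, and many more of all genes tested passed too. The median log2 change in that fit was 0.063 over the members and -0.036 over all genes tested. The added rises were RAB1B, RAB11B, RAB4B, RAB40C, RAB43 and RAB36, whose CPM was higher in fluvastatin replicate 1 than in replicate 2. RAB11B, for example, had 2.14 and 2.32 CPM in ethanol and 5.20 and 2.74 in fluvastatin, and RAB40C had 3.65 and 3.99 and then 7.73 and 4.75. The GC content of these 6 genes ran from 53.5% in RAB4B to 65.3% in RAB40C, against 42.2% in RAB28, which was the member called lower. Whether base composition played a part in these values was not tested. With limma on log2(TPM + 1) no member passed in KMS11, where it called 127 higher and 96 lower of all 13129 genes tested.

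The responses of the lines were then compared directly. The difference of the log2 responses, KMS11 minus H929, passed for 10 members, 5 in each direction, which is 20% of the members against 23.2% of all genes tested (11.7% positive and 11.5% negative). The negative differences were RAB37 (-1.71 ± 0.32), RAB31 (-1.41 ± 0.28), RAB39B (-0.99 ± 0.17), RAB8B (-0.75 ± 0.15) and RAB29 (-0.60 ± 0.15). In KMS11 these genes had changes of -0.47, 0.32, 0.19, 0.19 and 0.10, none of which passed. RAB37 and RAB31 were also low there, with 22 to 37 and 112 to 154 counts per library.

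Positive differences were found in RAB26 (3.22 ± 0.93), RAB3A (1.52 ± 0.45), RAB15 (1.05 ± 0.26), RAB1B (0.78 ± 0.24) and RAB8A (0.74 ± 0.13). RAB8A had 101 and 104 CPM in KMS11 in ethanol and 109 and 98.3 in fluvastatin, values that overlap, while in H929 it fell. In TPM it was lower in KMS11 too, at 49.9 and 43.2 in ethanol and 37.8 and 35.3 in fluvastatin, with a log2 change of 0.21 in effective length. With limma on log2(TPM + 1) the difference between the lines no longer passed for RAB8A. RAB1B passed in neither line alone. It had 66.5 and 52.3 CPM and then 59.0 and 50.3 in H929, and 43.9 and 46.1 and then 82.8 and 59.7 in KMS11. RAB31, RAB37, RAB39B and RAB8A passed in every fit that left out 1 library, whereas the counts over such fits ran from 1 to 7 positive and from 3 to 10 negative.

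Several members called in H929 alone had nearly the same change in KMS11. RAB27A had 0.41 ± 0.13 in each line, with a difference of 0.00 ± 0.19 (edgeR adjusted p = 1.0). RAB11A had 0.28 and 0.25, RAB22A had 0.38 and 0.26, and RAB33B had 0.52 and 0.36, and none of these differences passed. For RAB5B and RAB30, called in both lines, the differences were -0.18 ± 0.13 and 0.13 ± 0.13. The log2 change was above 0 for 32 of the 50 members in H929 and for 38 in KMS11. The share of all genes tested above 0 was not computed. The median change in H929 was 0.17 over the members and 0.02 over all genes tested, and in KMS11 0.12 and 0.004.

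**Figure D5:**
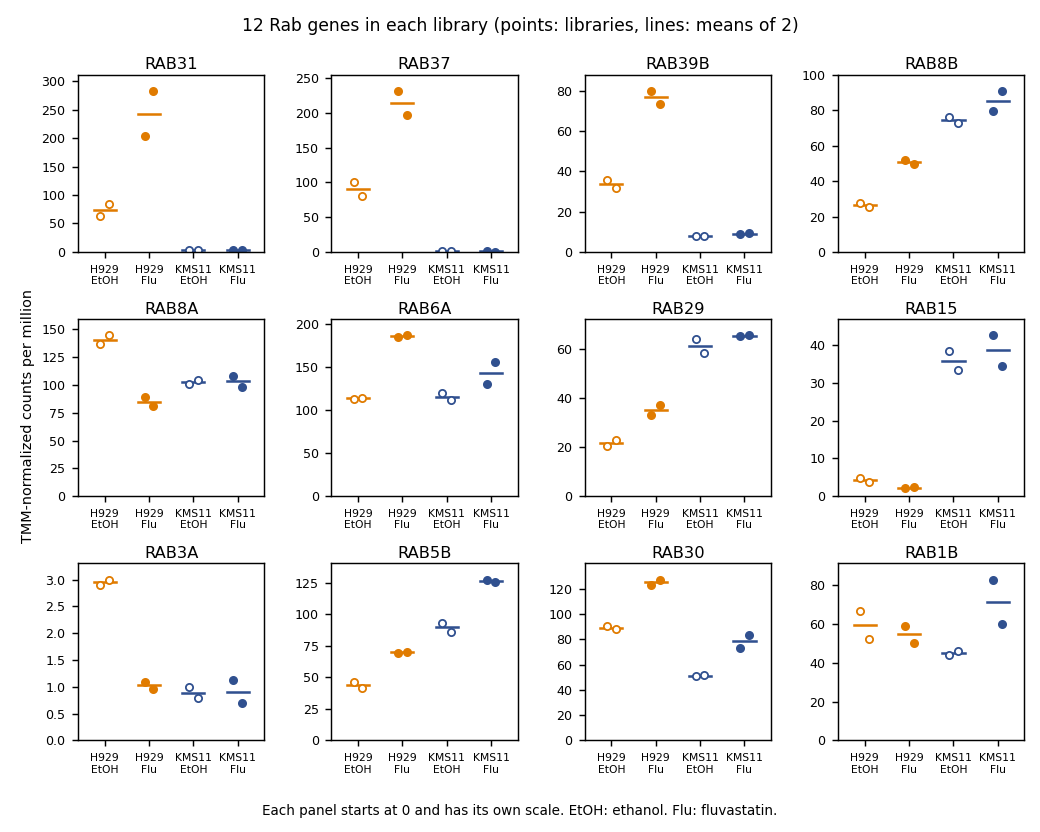
CPM (TMM-normalized counts) of 12 members in each library, with open points for ethanol, filled points for fluvastatin, orange for H929, blue for KMS11 and lines for the means of 2 replicates. RAB31, RAB37 and RAB39B rise in H929, and none of them is called in KMS11. RAB8A and RAB8B move in opposite directions in H929, and RAB5B and RAB30 are higher in fluvastatin in both lines. The fluvastatin replicates of RAB1B in KMS11 lie at 82.8 and 59.7.

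Across both lines, where line and treatment were both terms of the model, 6 members rose and none fell, against 10.4% of all genes tested (6.50% higher and 3.93% lower). At an unadjusted p under 0.05 edgeR had 17 members higher and 1 lower, RAB8A, again without a share over all genes. DESeq2 called 12 members higher and none lower, and of all 13129 genes tested it called 1322 higher and 1234 lower. The 6 members called in the main edgeR fit were RAB31 (1.12 ± 0.28), RAB5B (0.58 ± 0.08), RAB30 (0.55 ± 0.08), RAB6A (0.51 ± 0.11), RAB33B (0.44 ± 0.10) and RAB27A (0.41 ± 0.10). RAB5B had the smallest adjusted p (0.0067, edgeR) and RAB30 the next (0.0075). These 2 passed in every fit that left out 1 library, and the other 4 did not. None of the 6 passed in the fit with a block for each replicate number within each line. In that fit 143 of all 13129 genes tested were called higher and 15 lower. None of the 6 passed in the fit without a term for the line. There 4 of all genes tested were called higher and 0 lower.

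The genes that load and unload Rabs were taken from lists of the Rab cycle. Of 7 genes for prenylation and membrane delivery, all tested, 2 rose and 1 fell in H929 (22.7% and 19.3% of all genes tested), and none passed in KMS11, where their changes ran from -0.32 to 0.65. RABGGTB, the catalytic beta subunit of GGTase-II, fell in H929 from 81.8 and 98.0 TPM to 48.6 and 48.4 TPM, a log2 change of -0.81 ± 0.11 in counts. The value in KMS11 was -0.32 ± 0.11 and did not pass. CHM, the escort protein REP1, rose by 0.68 ± 0.13 in H929, and so did RABIF, which binds nucleotide-free Rabs (0.51). RABGGTA, the alpha subunit, had -0.13 ± 0.21.

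Among exchange factors, 18 of 52 tested rose and 2 fell in H929, where 22.7% of all genes tested were higher and 19.3% lower. DENND1B, which activates RAB35, had the largest rise, from 8.79 and 9.92 TPM to 25.95 and 30.4 TPM (log2 change 1.66 ± 0.12), and TRAPPC2L, a subunit of the TRAPP complexes, had the largest fall (-0.72 ± 0.12). In KMS11, where 2.58% of all genes were higher and 0.533% lower, the single call was DENND5A, from 1.62 and 0.86 TPM to 2.75 and 2.25 TPM (1.38 ± 0.20). Of 31 GTPase-activating proteins tested, 10 rose and 1 fell in H929, with TBC1D10C at 2.15 ± 0.43 from a level of 0.08 and 0.13 TPM. TBC1D9 rose in both lines, by 1.02 ± 0.15 in H929 and 1.06 ± 0.16 in KMS11, and TBC1D30 fell in both, with -0.78 ± 0.12 and -0.56 ± 0.12.

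Of 40 effectors tested, 17 rose and 1 fell in H929 (22.7% and 19.3% of all genes tested), and 4 rose in KMS11 (2.58% of all genes). MYO5B, a motor that binds RAB11 and RAB8 vesicles, rose in H929 from 2.45 and 1.93 TPM to 9.70 and 16.2 TPM, a log2 change of 2.64 ± 0.20, and had 0.35 ± 0.20 in KMS11. RAB11FIP1, a RAB11 binding protein of recycling endosomes, rose in both lines. It went from 4.06 and 3.87 TPM to 14.1 and 16.0 TPM in H929 (1.99 ± 0.13) and from 2.44 and 2.24 TPM to 5.42 and 7.13 TPM in KMS11 (1.56 ± 0.13, edgeR adjusted p = 0.00019). RAB11A itself changed by 0.28 and 0.25 in the same lines. The only effector that fell in H929 was OCRL, a phosphatase of early endosomes, at -0.36 ± 0.10. The median log2 change in H929 was 0.0085 for the delivery genes, 0.22 for exchange factors, 0.25 for GTPase-activating proteins and 0.32 for effectors, against 0.02 for all genes tested.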

How the data were processed

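RNA-seq covered 8 libraries, 4 groups of 2 biological replicates, grouped by the labels. Per the labels and methods, the authors sequenced stranded, ribosomal RNA-depleted libraries, aligned reads to GRCh38 (hg38) with STAR 2.5.2b and quantified genes with RSEM 1.3.0 and GENCODE release 26. The authors deposited expected counts, which are not normalized, TPM, FPKM and effective lengths. FPKM was not used. Symbols, biotypes and positions came from GENCODE release 44. Depth ranged from 26702515 to 41910446 counts, and replicates differed by more than counting error, so that the spread between replicates limits precision.

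Expected counts were rounded, filtered with filterByExpr (minimum count 10, minimum total 15), scaled by TMM and tested with edgeR 4.0.16 (quasi-likelihood F test, R 4.3.3, Benjamini-Hochberg adjustment over 13129 protein-coding genes, threshold 0.05). The SE is the size of the log2 change divided by the square root of F. Responses within lines, their difference and the comparison in ethanol came from a fit of 4 group means, and the response across lines from a fit with terms for line and treatment. The scripts were tested on simulated data. Promoters came from RefSeq (GRCh38.p14).

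Members, compartment lists and Rab cycle lists were written from general knowledge and chosen with earlier results of these data known. One gene for prenylation and membrane delivery is not reported here and was left out of that list's counts and median. Genes named were, for each compartment, the member with the highest median TPM, and for each comparison the called members with the largest changes (every one in KMS11, up to 5 per direction otherwise), with members near the 80-count threshold, paralogs called in opposite directions and the largest called rise and fall of each cycle list in each line; others are named as examples chosen after their values were seen. Alternatives were DESeq2 1.42.0, other scalings and filters, limma 3.58.1 on log2(TPM + 1), GC and length trends, stricter thresholds, a replicate block, no line term and leaving out each library. A crossed block was added after seeing the data.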

Additional observations from a re-analysis of the deposited data

Results flagged for a closer look

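Between H929 and KMS11 the response to fluvastatin differed for 10 members by a test of the difference itself, an interaction contrast in edgeR's quasi-likelihood fit. The log2 responses, KMS11 minus H929, differed by 3.22 for RAB26 (edgeR adjusted p = 0.033), 1.52 for RAB3A (0.038), 1.05 for RAB15 (0.018), 0.78 for RAB1B (0.039) and 0.74 for RAB8A (0.0046). They differed by -0.60 for RAB29 (0.021), -0.75 for RAB8B (0.0066), -0.99 for RAB39B (0.0033), -1.41 for RAB31 (0.0072) and -1.71 for RAB37 (0.0056). RAB26 had at most 23 counts in any library. RAB3A and RAB1B no longer passed with the GC trend removed. RAB8A, RAB8B, RAB29, RAB15, RAB26 and RAB1B no longer passed with limma on log2(TPM + 1). With 2 libraries per group no library could be tested as standing apart within its group.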

How the results depend on the processing

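Counts of called Rab genes are compared with the main values of 19 higher and 4 lower in H929, 2 higher in KMS11, 5 higher and 5 lower for the difference, 20 higher and 18 lower between the lines in ethanol, and 6 higher across both lines. At an adjusted p under 0.01 there were 9 higher in H929, 1 in KMS11, 1 higher for the difference and 2 across both lines. With a log2 fold change of at least 1 as well there were 4 higher and 2 lower in H929, 0 in KMS11, 3 higher and 2 lower for the difference, 11 higher in ethanol and 1 across both lines; both settings pass fewer genes by construction. The cause of the following shifts was not tested, and the counts over all genes tested shifted with these settings as well. DESeq2 gave 5 higher in KMS11, 3 higher and 8 lower for the difference and 12 higher across both lines, and no filter on low counts gave 5 and 10. limma on log2(TPM + 1) gave 11 higher in H929, 0 in KMS11, 1 higher for the difference, and 1 higher (RAB5B) and 1 lower (RAB8A) across both lines. On that scale 6644 genes were higher and 2477 lower in KMS11 in ethanol, against 4680 and 4774, and RAB8A (0.36), RAB33B (0.095) and RAB35 (0.016) changed sign there. With the GC trend removed 11 members rose in KMS11 and 16 rose and 1 fell across both lines, and with GC and length trends removed 10 and 15 rose; in ethanol RAB35 (0.017 and 0.0092) and RAB40C (0.37 and 0.36) changed sign. Without a term for the line 0 members passed across both lines, and of all genes tested 4 were higher and 0 lower.

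Leaving out 1 library gave 9 to 20 higher and 3 to 5 lower in H929, 0 to 8 higher and 0 to 1 lower in KMS11, 1 to 7 higher and 3 to 10 lower for the difference, 18 to 20 higher and 16 to 19 lower in ethanol, and 2 to 8 higher across both lines. Where this left 1 library in a group, that library was assumed to vary like the other groups. Deviations of same-numbered libraries correlated at 0.77 between the 2 H929 groups. Against fluvastatin-treated KMS11 they correlated at 0.70 for H929 in ethanol and 0.72 for H929 in fluvastatin. The pairs with KMS11 in ethanol had correlations from -0.18 to -0.08. Because not every pair of groups deviated together, the numbers were not taken as pairs in the main fit. The replicate block was each replicate number within a line, and in the ethanol comparison the number shared by the lines. It gave 7 higher in KMS11, 9 lower for the difference and 0 across both lines. It also gave 21 higher and 4 lower in H929, and 20 higher and 19 lower in ethanol. Of all 13129 genes tested it called 1161 higher in KMS11 and 1975 lower for the difference. Across both lines it called 143 of them higher and 15 lower. A crossed block with the numbers swapped in KMS11, added after seeing the data, gave 20 and 18 in ethanol. Members with few counts, such as RAB26, RAB34 and RAB20, are limited by depth.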
